A study of Mus musculus with 6 samples.

Results

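The interferon-stimulated genes are a set of 41 listed mouse genes whose transcription is switched on by interferons, and they were followed here in tongue tissue of mice given or not given doxycycline (DOX). A gene was measured wherever the accession of an array probe belonged to it. This held for 39 of the 41 genes, with 53 of the 55681 probes on the array, and Mx1 and Mx2 are not analysed here because no probe accession matched them. A total of 38 genes with 50 probes were bright enough to test. Oas1g, with both of its probes not well above background on any array, was not tested. The list was chosen by function and with earlier results of these arrays known.

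The 6 mice were of C57Bl6 background and all carried an inducible Dek transgene (iDek), described in the labels as ubiquitous and squamous cell-specific. Dek is a chromatin protein, and the antibiotic DOX serves as the switch of the transgene. The 3 untreated mice (no DOX) were compared with 3 mice that received DOX over 2 weeks, to ask what Dek induction does to expression in the tongue. Because the transgene was present in all 6 mice, and DOX-treated mice lacking it were not analysed here, effects of DOX and of Dek cannot be told apart. The labels do not name the promoter that drives the transgene.

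Interferons are secreted proteins that warn tissue of viruses and other intracellular microbes. Type I and type III interferons activate JAK kinases and the factor ISGF3, which contains STAT2 and IRF9 and binds the interferon-stimulated response element (ISRE) in promoters. Interferon gamma acts at gamma-activated sites (GAS) and through IRF1. The induced genes encode sensors of foreign RNA and DNA, enzymes that block viral replication, and the transcription factors themselves, so that the response feeds itself. Healthy epithelium carries a low standing level of many of these transcripts.

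To show the element that ties these genes to interferon, the promoters of 4 members are printed, each from a different role group and each holding the ISRE core. Sequences are from RefSeq, build GRCm38.p6, written 5′ to 3′ on the strand of the gene. Capitals mark matches to the ISRE core (GAAA, any 2 bases, then GAAA) on either strand, which read TTTC, any 2 bases, then TTTC where the match lies on the opposite strand. Stat2 (chr10:128270248-128270497, plus strand), Ifit1 (chr19:34640639-34640888, plus strand) and Oas3 (chr5:120777660-120777909, minus strand) are shown over the 250 bases before the transcription start. For Ifih1 (chr2:62646206-62646233, minus strand) the 28 bases around a match just after the start are shown.
Ifih1: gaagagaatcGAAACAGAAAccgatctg
Stat2: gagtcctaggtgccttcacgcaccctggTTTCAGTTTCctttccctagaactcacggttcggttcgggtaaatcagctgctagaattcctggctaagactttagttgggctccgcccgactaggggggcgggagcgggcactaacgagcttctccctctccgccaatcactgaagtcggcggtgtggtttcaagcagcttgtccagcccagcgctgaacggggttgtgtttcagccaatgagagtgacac
Ifit1: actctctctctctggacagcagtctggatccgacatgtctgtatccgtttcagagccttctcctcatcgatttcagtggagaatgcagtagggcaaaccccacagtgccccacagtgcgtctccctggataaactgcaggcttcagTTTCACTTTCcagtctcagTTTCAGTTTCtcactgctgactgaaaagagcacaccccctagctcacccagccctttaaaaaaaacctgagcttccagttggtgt
Oas3: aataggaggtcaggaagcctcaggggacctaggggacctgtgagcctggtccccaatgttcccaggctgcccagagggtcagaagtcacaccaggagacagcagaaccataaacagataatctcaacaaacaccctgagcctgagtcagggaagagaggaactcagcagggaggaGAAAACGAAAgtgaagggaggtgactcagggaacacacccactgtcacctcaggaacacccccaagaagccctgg

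Ifit1 held 2 matches, at 104 and 85 bases before the start, and the single match of Oas3 began 75 bases before it. Of the 31 members with an entry in the promoter table, 16 (51.6%) held this core in the window from 250 bases before to 50 after the start, against 3.99% of 27025 genes. The longer form with CT after the core was found in 9 members (29.0%), against 0.303% of genes. The GAS motif (TTC, any 3 bases, then GAA; both strands) was found in 9 members (29.0%), against 9.55% of genes. In Isg15, which encodes a ubiquitin-like protein, 3 core matches overlapped in a row, at 78, 72 and 66 bases before the start. The median log2 difference between DOX and no DOX was −0.41 over the 15 tested members with the core and −0.55 over the 15 without it.

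Nearly all of the interferon-stimulated genes had a lower mean signal in the tongue of mice given DOX, and none passed the test singly. Signals are given as log2 of the processed signal minus each array's 75th percentile, and a difference of −1 on this scale is 2-fold lower. The mean was lower with DOX for 36 of the 38 tested members, where 51.0% of all 26257 tested genes and unnamed probes had a lower mean. It was higher for Igtp and Cmpk2 only. In limma with Benjamini-Hochberg adjustment over all probes, 0 members had an adjusted p under 0.05 in either direction, and 0.404% of all tested did. At an unadjusted p under 0.05 in limma, 20 members were lower, where 9.58% of all tested were, and 0 were higher, where 9.05% of all tested were. The signals of the groups did not overlap for 14 members, all lower with DOX, against 12.6% of all tested. The median log2 difference over the members was −0.59, with quartiles of −0.86 and −0.36, and −0.01 over all tested. Adjusted p-values of the members ran from 0.0991 to 0.891. The 20 members lower at an unadjusted p under 0.05 became 7 when no DOX replicate 3 was left out, 9 for no DOX replicate 1, 11 for DOX replicate 1 and 10 for DOX replicate 3. Over all 6 fits that left out an array, the count ran from 7 to 26. In these fits between 6.79% and 11% of all tested were lower at that p. With the slide row on which each array lay as a block, the fit sets DOX replicate 1 alone against the untreated arrays. Effect sizes only are given for that fit, further below. In bulk tissue, fewer cells of a type and less RNA per cell cannot be told apart.

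**Figure D1:**
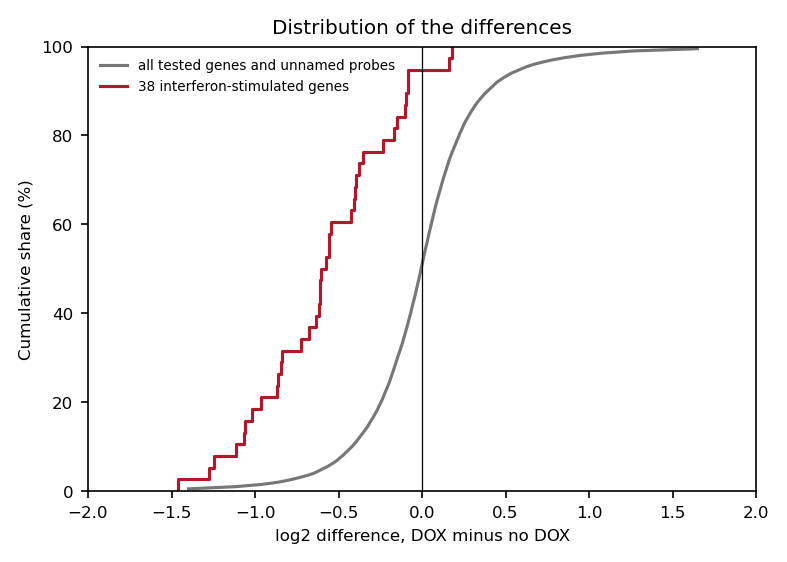
Cumulative share (%) of log2 differences, DOX minus no DOX, for the 38 tested interferon-stimulated genes (red) and for all tested genes and unnamed probes (grey, without the extreme tails). The red curve lies left of the grey one over its whole length, with medians of −0.59 and −0.01.

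The plot of cumulative shares shows that the shift was spread over the list and was not carried by a few genes. The upper quartile of the members, −0.36, was itself below 0. The largest difference was that of Oas2 at −1.46, and the other end of the range was Cmpk2 at 0.18. For 12 members with more than 1 tested probe, the probes gave the same sign in every case. Whether the groups overlapped could depend on the probe, and the brightest stood for its gene. Groups apart on the brightest probe overlapped on another for Zbp1, Dtx3l and Adar, and the reverse held for Xaf1 and Herc6. Oas1a probes gave −0.97 and −1.0, and Isg15 probes gave −0.86 and −0.92.

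**Figure D2:**
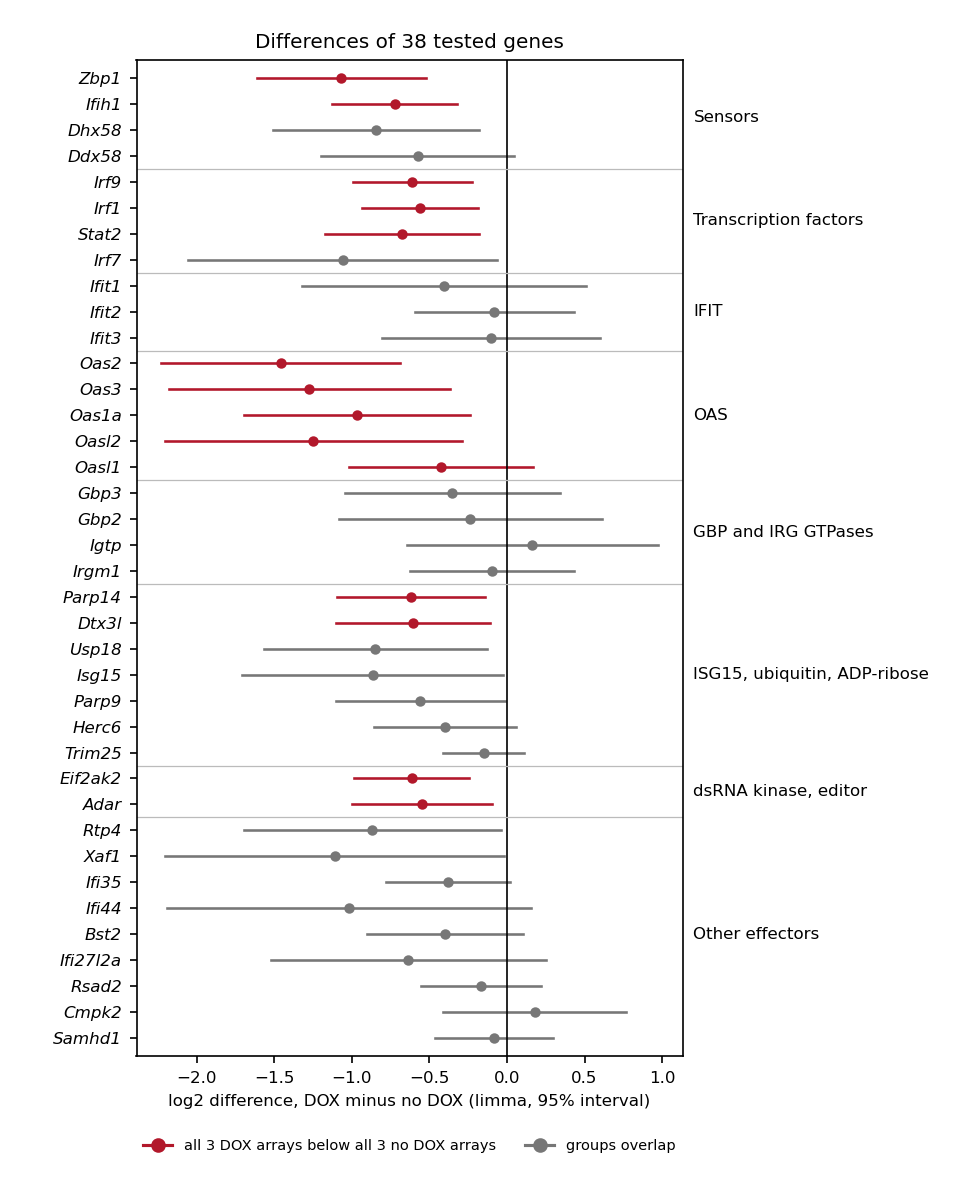
Log2 difference, DOX minus no DOX, of each tested member with its 95% interval (limma), grouped by role. Red marks the 14 members whose 3 DOX arrays all lay below the 3 no DOX arrays by brightest probe. These include all 5 tested OAS genes and none of the IFIT or GTPase genes.

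Among the sensors, Zbp1, Ifih1 (MDA5), Dhx58 (LGP2) and Ddx58 (RIG-I), all 4 had a lower mean with DOX, with a median log2 difference of −0.78. Zbp1, which binds nucleic acid in the Z form and can start necroptosis, had signals of 0.96, 0.28 and 0.84 without DOX and −0.34, −0.10 and −0.68 with DOX. By this brightest probe every DOX array lay below every no DOX array. The log2 difference was −1.07 ± 0.23 (SE, 3 and 3 arrays, limma adjusted p = 0.0991). This was the smallest adjusted p among the members. On a second Zbp1 probe the groups overlapped, with a log2 difference of −0.81 ± 0.34 (limma adjusted p = 0.267). Ifih1, a sensor of long double-stranded RNA, had signals of 1.46, 1.31 and 1.63 without DOX and 0.50, 1.04 and 0.69 with DOX. These did not overlap, and the log2 difference was −0.72 ± 0.17 (limma adjusted p = 0.112). Dhx58, a helicase that modulates the other RNA sensors, had signals of 0.21, −0.03 and 0.53 against −0.95, −0.02 and −0.85. Its groups overlapped by a single array, DOX replicate 2, and the log2 difference was −0.84 ± 0.28 (limma adjusted p = 0.191). Ddx58, the sensor of RNA with a 5′ triphosphate, differed by −0.58 ± 0.26 (limma adjusted p = 0.296), again with DOX replicate 2 within the range of the untreated arrays.

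The transcription factors of the response were lower in mean in all 4 cases, with a median log2 difference of −0.64. Irf9, the DNA-binding subunit of ISGF3, had signals of 3.17, 3.01 and 3.44 without DOX and 2.63, 2.77 and 2.39 with DOX. The groups were apart, with a log2 difference of −0.61 ± 0.16 (limma adjusted p = 0.135). Stat2, its partner in ISGF3, had signals of 2.85, 2.17 and 2.71 against 1.94, 2.09 and 1.67. Here no DOX replicate 2 lay close above DOX replicate 2, and the log2 difference was −0.68 ± 0.21 (limma adjusted p = 0.173). Irf1, a factor induced by interferon gamma, had signals of 3.13, 2.80 and 3.00 against 2.68, 2.33 and 2.24. Its groups did not overlap and differed by −0.56 ± 0.16 (limma adjusted p = 0.148). Irf7, which amplifies transcription of type I interferon genes, differed by −1.06 ± 0.42 (limma adjusted p = 0.244) with wide spread, from −1.89 to −0.27 with DOX and from −0.53 to 0.13 without.

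Oligoadenylate synthetases (OAS) make the messenger that activates RNase L, which cuts RNA, and the OAS-like proteins share their fold. They held the largest differences of any role group, with a median of −1.25 over the 5 tested genes, and in all 5 the groups did not overlap. Oas2 had signals of 3.38, 3.36 and 3.82 without DOX and 1.90, 2.76 and 1.52 with DOX. This is a 2.75-fold lower mean, with a log2 difference of −1.46 ± 0.32 (limma adjusted p = 0.103). Oas3 had signals of −1.27, −1.36 and −0.82 against −2.80, −1.55 and −2.92. DOX replicate 2 was again nearest to the untreated arrays, and the log2 difference was −1.27 ± 0.38 (limma adjusted p = 0.161). Oas1a had signals of 4.68, 4.55 and 5.20 against 3.59, 4.47 and 3.48, a log2 difference of −0.97 ± 0.30 (limma adjusted p = 0.178). Oasl2 differed by −1.25 ± 0.40 (limma adjusted p = 0.182), and its groups were barely apart. Its DOX replicate 2 stood at 2.306 and no DOX replicate 2 at 2.314. Oasl1 was the least different of the family, at −0.43 ± 0.25 (limma adjusted p = 0.403), and DOX replicates 2 and 3 stood at 2.76 and 2.61 against 2.80 to 2.83 without DOX. Oas1a and Oas1g are near copies of each other, and cross-hybridisation between such copies was not tested.

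Of the antiviral IFIT proteins, IFIT1 binds viral RNA that lacks the host's cap methylation. Their 3 members were the part of the antiviral set with the smallest differences, with a median of −0.10, and in none did the groups separate. Ifit1 had signals of −0.12, −0.64 and −0.01 without DOX and −0.41, −0.07 and −1.51 with DOX. DOX replicate 3 alone was far below the rest, and the log2 difference was −0.41 ± 0.38 (limma adjusted p = 0.625). Ifit3 had signals of −0.24, −1.05 and −0.75 against −0.73, −0.34 and −1.28, a log2 difference of −0.10 ± 0.29 (limma adjusted p = 0.891). Ifit2 had signals of −2.48, −2.98 and −2.64 against −2.84, −2.41 and −3.10, a log2 difference of −0.08 ± 0.21 (limma adjusted p = 0.883). Without DOX replicate 3 all 3 signs turned, to 0.019 for Ifit1, 0.076 for Ifit2 and 0.14 for Ifit3.

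Guanylate-binding proteins (GBP) and immunity-related GTPases (IRG) attack the vacuoles of intracellular bacteria and parasites and are classic targets of interferon gamma. Their 4 members also had small differences, with a median of −0.17. Gbp3 had signals of 1.22, 0.50 and 1.33 without DOX and 0.87, 0.93 and 0.19 with DOX. Gbp2 had signals of 2.22, 1.26 and 2.27 against 2.19, 1.68 and 1.18. In both, no DOX replicate 2 and DOX replicate 3 were low and the remaining arrays were higher. The log2 differences were −0.35 ± 0.29 for Gbp3 (limma adjusted p = 0.567) and −0.24 ± 0.35 for Gbp2 (limma adjusted p = 0.778), and the Gbp2 sign turned to 0.017 without DOX replicate 3. Igtp had signals of 2.66, 1.72 and 2.60 against 2.91, 2.60 and 1.95, with a higher mean with DOX (0.16 ± 0.34; limma adjusted p = 0.847). That sign turned without no DOX replicate 2 (−0.14) and without DOX replicate 1 (−0.05). Irgm1, an IRG regulator, differed by −0.10 ± 0.22 (limma adjusted p = 0.861). Whether the difference of OAS genes exceeds that of IFIT or GTPase genes was not tested.

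**Figure D3:**
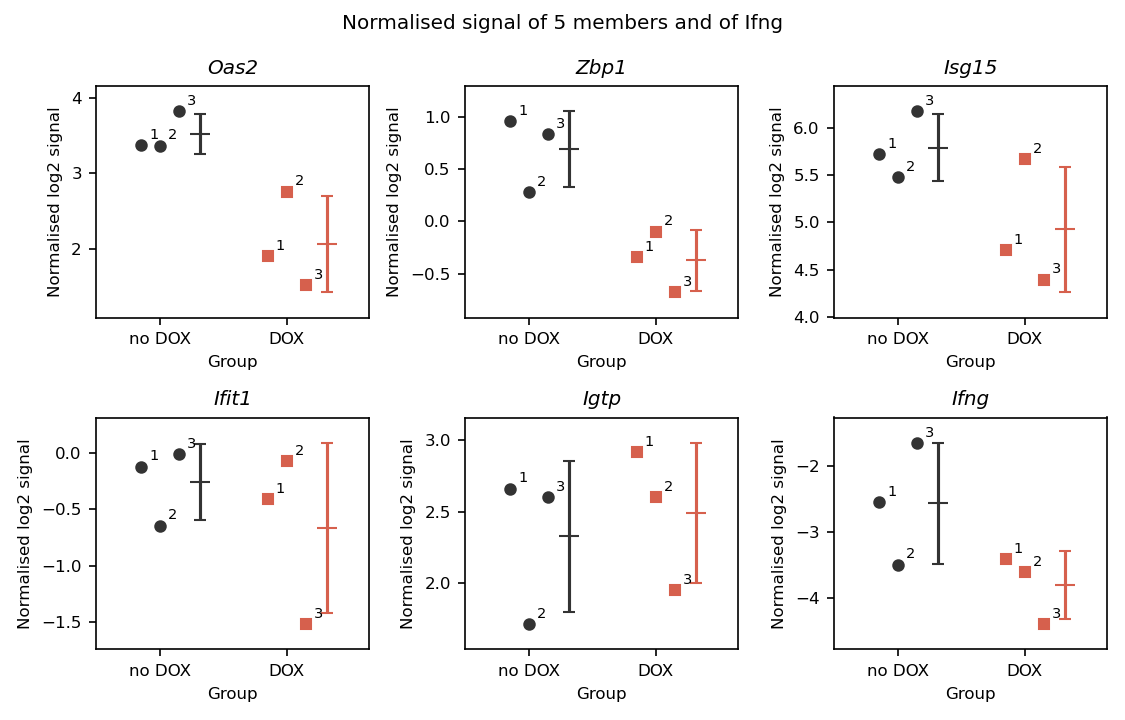
Normalised log2 signal of Oas2, Zbp1, Isg15, Ifit1, Igtp and Ifng on each array, numbered by replicate, with mean and SD of 3 arrays at the side of each group. By brightest probe, groups are apart for Oas2 and Zbp1 and overlap for the other genes shown, and each panel has its own scale.

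The 7 members of the ISG15 system and of ubiquitin or ADP-ribose enzymes all had a lower mean with DOX, with a median of −0.61. Isg15 signals were 5.72, 5.48 and 6.17 without DOX and 4.71, 5.67 and 4.39 with DOX. DOX replicate 2 stood within the untreated range and the other 2 DOX arrays well below it, for a log2 difference of −0.86 ± 0.35 (limma adjusted p = 0.256). Usp18, the protease that removes ISG15 and restrains the type I receptor, had signals of 2.06, 1.20 and 1.81 against 0.72, 1.34 and 0.46 (−0.85 ± 0.30; limma adjusted p = 0.210). Parp14, an ADP-ribosyltransferase, had signals of 1.86, 1.46 and 1.73 against 1.29, 1.23 and 0.68. Its groups were apart, with a log2 difference of −0.62 ± 0.20 (limma adjusted p = 0.185). Dtx3l, a ubiquitin ligase that works with Parp9, had signals of 1.26, 0.79 and 1.21 against 0.51, 0.79 and 0.14. The lowest untreated and the highest DOX value were equal at this precision, and the log2 difference was −0.61 ± 0.21 (limma adjusted p = 0.20). Parp9 itself differed by −0.56 ± 0.23 (limma adjusted p = 0.256), the ligase Herc6 by −0.40 ± 0.19 (0.314) and the ligase Trim25 by −0.15 ± 0.11 (0.514). Parp14, Dtx3l and Parp9 are adjacent protein-coding genes on chromosome 16.

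Both enzymes that act on double-stranded RNA had non-overlapping groups by brightest probe. Eif2ak2 (PKR), the kinase that stops translation when it meets double-stranded RNA, had signals of 0.57, 0.13 and 0.62 without DOX and −0.22, −0.09 and −0.22 with DOX. Spread among the DOX arrays was small for this gene (SD 0.07, n = 3), and the log2 difference was −0.61 ± 0.15 (limma adjusted p = 0.129). Adar, which edits adenosine to inosine and so masks the cell's own double-stranded RNA, had signals of 1.56, 1.29 and 1.79 against 1.08, 1.23 and 0.70. The log2 difference was −0.55 ± 0.19 (limma adjusted p = 0.204). A second Adar probe had overlapping groups and differed by −0.34 ± 0.16 (limma adjusted p = 0.309).

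The other 9 effectors had a median log2 difference of −0.40, and by brightest probe the groups overlapped in all 9. Rtp4, a receptor-trafficking protein with antiviral action, had signals of 3.78, 3.32 and 3.90 without DOX and 2.72, 3.50 and 2.16 with DOX (−0.87 ± 0.34; limma adjusted p = 0.249). Xaf1, a pro-apoptotic zinc-finger protein, had signals of 3.38, 2.99 and 3.64 against 2.33, 3.10 and 1.23 (−1.11 ± 0.46; limma adjusted p = 0.261). Ifi35 had signals of 2.32, 2.10 and 2.42 against 1.77, 2.21 and 1.73 (−0.38 ± 0.17; limma adjusted p = 0.288). In all 3, the overlap came from DOX replicate 2 standing above no DOX replicate 2. A second Xaf1 probe had its groups apart, with a log2 difference of −0.80 ± 0.21 (limma adjusted p = 0.137). Ifi44 differed by −1.02 ± 0.49 (limma adjusted p = 0.319), Ifi27l2a by −0.64 ± 0.37 (0.406) and the virus tether Bst2 by −0.40 ± 0.21 (0.362). Small differences were found for Rsad2 (viperin, −0.17 ± 0.16; limma adjusted p = 0.636) and for the nucleotide hydrolase Samhd1 (−0.08 ± 0.16; 0.830). Cmpk2, a mitochondrial nucleotide kinase and the neighbour of Rsad2 on chromosome 12, had signals of −1.65, −2.19 and −2.04 against −1.68, −1.43 and −2.25. Its log2 difference was 0.18 ± 0.24 (limma adjusted p = 0.757), and without DOX replicate 2 it was −0.0016.

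The members shared much of their order across the mice, within the groups as well as between them. The mean deviation of the 38 members from their 6-array means was 0.41, −0.0047 and 0.48 on no DOX replicates 1 to 3 and −0.33, 0.11 and −0.66 on DOX replicates 1 to 3. Thus DOX replicate 2 stood above no DOX replicate 2, and the groups overlapped at the level of the whole list. DOX replicate 3 held the lowest of the 6 values for 32 of 38 members, where 15.7% of all tested were lowest on that array. Within the untreated group, replicate 2 was lowest for 36 of 38 members, against 28.3% of all tested. Within the DOX group, replicate 2 was highest for 32, against 33.3% of all tested. Signals below all 3 untreated arrays were seen for 27 members on DOX replicate 1, 16 on DOX replicate 2 and 37 on DOX replicate 3, where 32.4%, 33.4% and 30% of all tested lay below. The within-group SD of the members had a median of 0.36, against 0.19 over all tested, and 37 of 38 members were above that overall median.

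**Figure D4:**
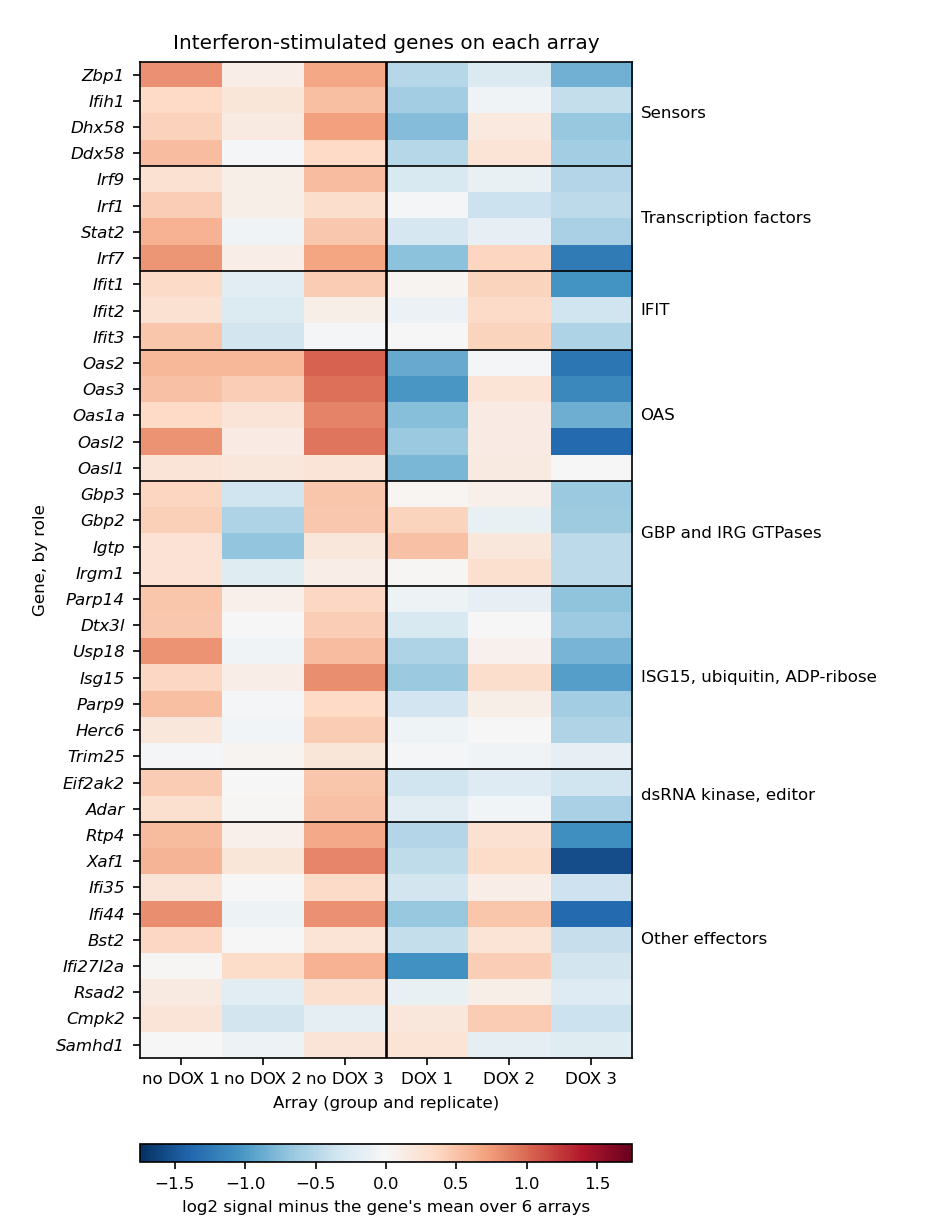
Log2 signal of each tested member minus its mean over the 6 arrays, by array, with genes grouped by role. No DOX replicates 1 and 3 are high and DOX replicates 1 and 3 low in most members, while the replicates numbered 2 of both groups lie near the middle.

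The level by role group followed this order in part. OAS genes stood at 0.49, 0.31 and 0.81 without DOX and −0.82, 0.13 and −0.92 with DOX. Sensors stood at 0.52, 0.12 and 0.56 against −0.59, 0.02 and −0.63, and transcription factors at 0.52, 0.06 and 0.50 against −0.33, −0.07 and −0.69. In these 3 role groups the untreated arrays all lay above the DOX arrays. IFIT genes stood at 0.36, −0.25 and 0.18 against −0.01, 0.37 and −0.65, and GTPases at 0.33, −0.45 and 0.32 against 0.24, 0.11 and −0.55. For these the arrays of the groups were interleaved. The ISG15 system stood at 0.40, 0.016 and 0.45 against −0.28, 0.042 and −0.63. Other effectors stood at 0.33, −0.0071 and 0.43 against −0.35, 0.25 and −0.65. In both, DOX replicate 2 stood above no DOX replicate 2. The double-stranded RNA kinase and editor stood at 0.36, 0.0073 and 0.50 against −0.27, −0.14 and −0.46, with the groups apart.

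**Figure D5:**
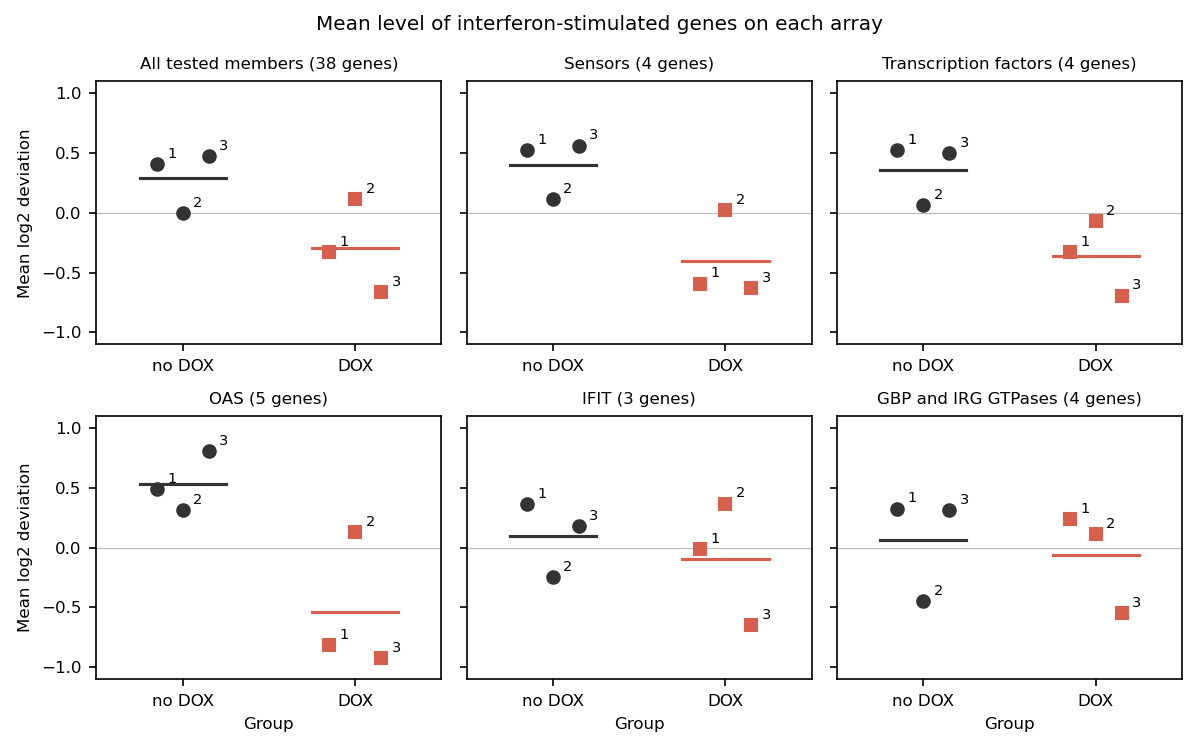
Mean log2 deviation from the 6-array mean over all tested members and over 5 role groups, for each array (points, numbered by replicate), with a line at the group mean. Sensors, transcription factors and OAS genes separate the groups, and IFIT and GTPase genes do not.

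Other genes of the interferon pathway, a list of 133 that holds no member, gave 106 tested genes with a median log2 difference of −0.09. Of these, 0 passed the limma test in either direction. At an unadjusted p under 0.05, 20 were lower and 5 higher, where 9.58% and 9.05% of all tested were. Groups that did not overlap were seen for 18 lower and 7 higher, against 12.6% and 12.7% of all tested. Without no DOX replicate 1 the 20 became 13 (6.79% of all tested in that fit). With slide row as a block, where DOX replicate 1 alone is set against the untreated arrays, the median was 0.0075. Among interferon ligands, 8 of 21 could be tested and 6 of the 8 had a higher mean with DOX (median 0.32). Ifnb1 (interferon beta) gave 0 arrays well above background. Ifng (interferon gamma), a dim signal, stood at −2.55, −3.49 and −1.66 without DOX and −3.41, −3.61 and −4.39 with DOX (−1.24 ± 0.48; limma adjusted p = 0.242). No DOX replicate 2 lay within the DOX range of this gene, and no DOX replicate 3 was the highest. Ifna14 differed by 0.46 ± 0.14 (limma adjusted p = 0.170) and Ifna12 by 0.32 ± 0.13 (0.247), both with non-overlapping groups. Both were dimmer still, with means of −2.91 and −3.55 without DOX. Second probes of Ifna12, Ifna2, Ifnab and Ifnl3 were not well above background on any array. Cross-hybridisation among the similar alpha interferon genes was not tested.

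Receptor genes differed little, with a median of −0.04 over 6 genes. The largest receptor differences were those of Ifnlr1, the type III receptor chain found on epithelium (−0.33 ± 0.18; limma adjusted p = 0.382), and Ifngr2 (−0.24 ± 0.17; 0.478). The type I receptor chain Ifnar2 differed by −0.05 ± 0.15 (limma adjusted p = 0.895). Of the 13 JAK, STAT and IRF genes outside the member list, Irf5 was at 0.38, 0.50 and 0.67 without DOX and 0.14, 0.09 and 0.14 with DOX (−0.39 ± 0.11; limma adjusted p = 0.151). Jak2, the kinase of the interferon gamma receptor, was at 1.79, 1.90 and 1.84 against 1.60, 1.57 and 1.56 (−0.27 ± 0.09; limma adjusted p = 0.210). Irf4, a factor of lymphocytes, differed by −0.40 ± 0.16 (limma adjusted p = 0.246). For Irf5 and Jak2 the groups were apart, with little spread.

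Sensing adaptors and kinases upstream of interferon had a median of −0.01 over 15 genes, and inhibitors of the response 0.02 over 12. In the first list, Ikbke, a kinase of IRF3 and IRF7, differed by −0.40 ± 0.12 (limma adjusted p = 0.176) and Traf3, an adaptor of the RNA sensors, by 0.33 ± 0.11 (0.199). Tlr3, the endosomal sensor of double-stranded RNA, differed by −0.62 ± 0.21 (limma adjusted p = 0.196), although only 1 of its 3 DOX signals was well above background. In the second list, the phosphatase Ptpn2 differed by 0.21 ± 0.11 (limma adjusted p = 0.348) and Pias1, which inhibits STAT proteins, by −0.14 ± 0.10 (0.506). Isg20, grouped with them in the list but an interferon-induced exonuclease of viral RNA, differed by 0.39 ± 0.26 (limma adjusted p = 0.459), the highest value of that list.

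The largest list, 52 tested genes of the 64 further interferon-induced genes, had 38 with a lower mean and a median of −0.19. With the brightest probe standing for each gene, its lowest adjusted p-values were smaller than those of any member. Tor3a was at 1.92, 1.87 and 1.97 without DOX and 1.42, 1.37 and 1.32 with DOX, a log2 difference of −0.55 ± 0.10 (limma adjusted p = 0.0777). Parp10, an ADP-ribosyltransferase, was at 4.70, 4.56 and 4.88 against 3.95, 4.13 and 4.0 (−0.69 ± 0.12; limma adjusted p = 0.0802). Mov10, an antiviral RNA helicase, was at 0.50, 0.27 and 0.27 against −0.24, −0.19 and −0.25 (−0.58 ± 0.11; limma adjusted p = 0.0854). In these 3 genes the arrays of a group were close together and the groups did not overlap. With normexp background correction Tor3a (adjusted p = 0.0308) and Parp10 (0.0380) passed the limma test. Ms4a4c, a membrane protein of leukocytes named here after its values were seen, had probes that disagreed. Its brightest probe differed by −0.10 ± 0.13 (limma adjusted p = 0.751). A dimmer probe, A_55_P2135986, was at −1.65, −1.93 and −1.59 without DOX and −2.81, −2.87 and −3.21 with DOX. That probe fell with DOX by 1.24 ± 0.15 on the log2 scale (limma adjusted p = 0.0406), and it was the 1 probe of 134 tested in the pathway lists to pass. Of 25 pathway genes with several tested probes, 5 had probes of opposite sign, Pias1 among them.

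Markers of other cell types in the tissue were read beside these values. Of 12 T and NK cell markers, 9 were tested and 8 had a lower mean with DOX. Cd8a and Cd247 passed the limma test (adjusted p = 0.0241 and 0.0166), but on none of the DOX arrays was either well above background. Their p-values therefore set measured untreated signals against background readings, and the size of the difference was not measured. A second probe of each gene was too dim to be tested. By the brighter probes, Cd8a was at least 1.72-fold lower with DOX and Cd247 at least 1.24-fold lower. These bounds set the untreated mean against the dimmest well-measured signal of each DOX array, or the probe's own where that was higher. The T and NK list stood at 0.37, 0.18 and 0.36 without DOX and −0.09, −0.33 and −0.49 with DOX. Its groups did not overlap and DOX replicate 2 lay in the middle of its group. This mean includes Cd8a and Cd247, so the separation rests in part on DOX signals below background. By brightest probe, the other markers with a lower mean ran from −0.71 (Cd3d, limma adjusted p = 0.290) to −0.04 (Cd3e, 0.868). Cd4 had a higher mean, by 0.31 ± 0.13 (limma adjusted p = 0.262), while a much dimmer Cd4 probe differed by −0.06 ± 0.14 (0.865). Nkg7 probes differed in size. The brightest gave −0.14 ± 0.10 (limma adjusted p = 0.494) and a dimmer one −1.14 ± 0.23 (0.0915), with groups apart on both. Ncr1 and Klrb1c, which define NK cells, were not well above background on any of the 6 arrays. The part of these cells in the differences of the members was not tested. The mean level of the neutrophil list per array ranged from −0.56 to 0.33 without DOX and from −0.68 to 1.27 with DOX. Its 5 tested genes went both ways, with 2 lower and 3 higher in mean, from −1.49 (Retnlg) to 1.86 (S100a8). Of the marker lists of plasmacytoid dendritic cells, dendritic and Langerhans cells, macrophages, neutrophils, B cells, squamous epithelium, skeletal muscle, endothelium and fibroblasts, 0 of 47 tested genes passed the limma test. At an unadjusted p under 0.05, 4 of the 47 were lower and 2 higher, where 9.58% and 9.05% of all tested were. Epithelial and muscle markers of the tongue were measured, with medians of −0.04 and 0.06.

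Between 56.0% and 58.3% of the probes were well above background on each array, and no spot was saturated. Dek was at 2.30, 2.10 and 2.20 without DOX and 2.41, 2.41 and 2.27 with DOX, a log2 difference of 0.17 ± 0.11 (limma adjusted p = 0.456). Permuting the arrays exactly (two-sided) gave p = 0.2 for Dek, where 0.1 is the smallest value possible. Which part of the Dek transcript its probe reads was not known, so the value does not check the labels. A single slide held all 6 arrays and was scanned once. Row 1 of that slide carried the 3 untreated arrays together with DOX replicate 1, and row 2 carried the other DOX arrays. Since row 2 held only DOX arrays, a row block leaves DOX replicate 1 alone to set against the untreated arrays. That fit therefore cannot separate row from DOX for DOX replicates 2 and 3. In it the median over the members was −0.62, 34 of 38 had a lower mean, and Gbp2 turned to 0.28.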

How the data were processed

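Cy3-labelled RNA from tongue tissue of 6 mice was hybridised to single-colour Agilent arrays, per the labels' protocols. Per the file headers, the deposited files are scanner output of Agilent Feature Extraction 11.5.1.1 and give a background-subtracted processed intensity for each spot. A deposited value table holds the same intensity times 1 factor per array (3.70 to 3.99), linear and not centred, and the rule for the factor is unknown. The medians of its columns lay at 102.5, 94.2 and 92.7 (untreated) and at 90.01, 97.5 and 93.7 (DOX), by replicate number.

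Groups came from the treatment label and replicate numbers from the titles. Outlier spots (146 to 195 per array) were left out, log2 signals were averaged per probe, and each array's 75th percentile was subtracted. Probe accessions were matched to a RefSeq gene table (GRCm38.p6), which named 28331 probes and left 27350 unnamed. The array design used another build, so no probe coordinates are given. Probes well above background on all 3 arrays of a group were tested (30935), and the brightest stood for its gene. The two-sided fit used lmFit and eBayes of limma 3.58.1 under R 4.3.3, with Benjamini-Hochberg adjustment over all tested probes and a threshold of 0.05, and was tested on simulated data. After a log2 difference, ± is its standard error. The number of arrays limits precision.

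Members and lists were chosen with earlier results of these data known. Array values are given for up to 3 members per role group with the smallest p, for the member with the highest difference, and for up to 3 genes of each pathway list. A gene that the rule names is not reported here. Isg15, Ms4a4c, Dek and the marker genes fall outside that rule, having been picked with their values in view. Alternatives covered background correction (normexp with offset 50, on the median signal because the mean signal is not among the columns used here), normalization, the value table, filters, variance model, array weights, replicate block, probe rule, motif and leaving out each array. The slide row as a block was added after seeing the data.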

Additional observations from a re-analysis of the deposited data

How the results depend on the processing

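With 6 arrays, single-gene calls among the members were not reached: 0 members passed under any of the alternatives, with lowest adjusted p-values (limma) of 0.0593 to 0.235. Leaving out each array moved the median of the members between −0.71 and −0.46, their mean level difference between −0.79 and −0.40, and the Dek difference between 0.11 and 0.22; the other settings kept the median between −0.63 and −0.52. Among other pathway genes, 2 passed with normexp (Tor3a and Parp10), 1 with trend and robust variance (Tor3a, adjusted p = 0.0489), and their median was 0.0075 with slide row as a block. The longer motif was in 9 members against 16 for the core. Signs turned in 11 of 384 alternative fits of 24 named members, in 6 genes, and in 2 of 303 fits of 19 pathway genes. With array weights Gbp2 was at 0.028, and with slide row as a block at 0.28. With an array left out, Ifit1 ran from −0.70 to 0.019, Ifit2 from −0.27 to 0.076, Ifit3 from −0.32 to 0.14, Gbp2 from −0.56 to 0.017 and Ifnar2 from −0.15 to 0.044; the sign turned without DOX replicate 3 in these 5 genes, and without no DOX replicate 1 also in Ifit2, Ifit3 and Ifnar2. Igtp ran from −0.14 (without no DOX replicate 2) to 0.43, turning also without DOX replicate 1 (−0.050), and Cmpk2 from −0.0016 (without DOX replicate 2) to 0.41. The causes were not tested. Over all 30935 tested probes 124 passed, against 284 with normexp, 224 with trend and robust variance and 319 with array weights. With no filter 1 of 55681 passed, and with an array left out 0 to 56. The slide row block rests on DOX replicate 1 alone, so its number of passing probes is not given. The labels do not say whether a replicate number marks a shared animal, litter or day. Deviations of same-numbered arrays correlated at −0.12, −0.0099 and 0.0055, which cannot settle whether the arrays were paired. With the replicate block 0 of all probes passed, the median of the members was −0.59, and 10 members were lower at an unadjusted p under 0.05 (9.31% of all tested) in place of 20.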
